A study of Mus musculus with 12 samples.

Results

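Myelin is the stack of lipid-rich membrane that mature oligodendrocytes wrap around axons in the brain. Its proteins press the membrane layers together, hold the sheath to the axon and seal it at its edges, and their genes are switched on as an oligodendrocyte matures. The group described here holds 9 such genes, chosen by symbol: Mbp, Mobp, Mag, Mog, Opalin, Cldn11, Mal, Cnp and Ermn. The rule that lists them uses no measured value. All 9 were found among the 19775 genes of the deposited table, and all 9 passed the filter on low values in every comparison.

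The whole brains of 12 male C57BL/6N mice at about postnatal day 120 were compared: 4 wild-type (WT) mice, 4 heterozygous (HT) mice with 1 mutant allele of Slc6a20a and 4 homozygous (HM) mice with 2. Slc6a20a encodes a transporter of proline and glycine, and the mutant allele lacks exon 3. All genotypes came from crosses of heterozygous parents, the labels name no other mutation or treatment, and each library is from a single mouse. Values are normalized counts, that is, estimated read counts per gene that the authors divided by a size factor for each library.

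A whole-brain sample mixes all cell types, so that fewer oligodendrocytes and less myelin RNA in each oligodendrocyte cannot be told apart. The 12 libraries summed to between 33284951 and 33748623 normalized counts. The spacing of the lowest values gave a rough estimate of 30361803 to 35951110 reads on genes. Only 6.6% to 24.2% of values under 20 were whole multiples of that spacing (tolerance 0.02), so it does not establish these depths. WT mice averaged 679.3 ± 70.1, HT mice 345.0 ± 29.1 and HM mice 64.55 ± 9.95 normalized counts of Slc6a20a (mean ± SD, n = 4 each), and the genotypes did not overlap, in the order that the labels give. All p-values measure the spread between these mice.

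The upstream sequences of 4 members are shown as examples with and without motifs of oligodendrocyte transcription factors. Mobp, Mag and Cnp hold matches, and Ermn, like Cldn11 and Mal, holds none. Each sequence comes from the 250 bases before the RefSeq transcription start on GRCm38.p6, read 5′ to 3′ along the strand of the gene and printed as far as the first base of the GENCODE gene. Capitals mark ACAAAG, a core that SOX factors such as Sox10 bind, and CTGGCAC or CTGGTAC, forms of the core bound by the myelin regulatory factor Myrf, each searched on both strands.
Mobp, chr9:120149492-120149706, plus strand: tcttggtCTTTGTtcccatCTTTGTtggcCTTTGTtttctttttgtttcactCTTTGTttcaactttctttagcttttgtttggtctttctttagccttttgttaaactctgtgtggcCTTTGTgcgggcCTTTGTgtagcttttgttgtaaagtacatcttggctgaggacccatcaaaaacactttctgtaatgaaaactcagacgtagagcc
Mag, chr7:30914874-30915113, minus strand: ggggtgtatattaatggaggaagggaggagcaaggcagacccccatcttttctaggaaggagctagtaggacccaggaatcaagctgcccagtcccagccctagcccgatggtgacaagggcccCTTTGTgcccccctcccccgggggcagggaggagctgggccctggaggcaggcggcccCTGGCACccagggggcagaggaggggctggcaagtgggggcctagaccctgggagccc
Cnp, chr11:100574689-100574903, plus strand: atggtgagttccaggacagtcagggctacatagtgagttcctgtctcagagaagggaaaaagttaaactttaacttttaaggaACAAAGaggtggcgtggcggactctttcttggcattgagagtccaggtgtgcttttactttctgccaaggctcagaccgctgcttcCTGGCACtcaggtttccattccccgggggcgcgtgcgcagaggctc
Ermn, chr2:58052865-58053114, minus strand: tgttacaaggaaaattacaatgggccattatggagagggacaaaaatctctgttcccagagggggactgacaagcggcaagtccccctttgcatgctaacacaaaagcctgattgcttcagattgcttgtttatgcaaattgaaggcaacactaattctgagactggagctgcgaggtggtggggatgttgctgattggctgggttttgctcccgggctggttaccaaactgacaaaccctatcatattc

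In the Mobp sequence all 6 capital runs are CTTTGT, the reverse complement of ACAAAG, beginning between 243 and 120 bases before the RefSeq start. Mag and Cnp each hold 1 match to ACAAAG, as CTTTGT in Mag, and 1 to CTGGCAC. The CTGGCAC match begins 68 bases before the start in Mag and 81 in Cnp, and the ACAAAG match begins 126 and 167 bases before it. No match in these sequences overlapped another. Of the 8 members with a sequence examined, 4 held ACAAAG (Mobp, Mag, Opalin and Cnp), 2 held CTGGCAC and 1, Mog, held CTGGTAC. Mbp was not examined, and for Mag, which has 3 RefSeq windows, the one nearest the GENCODE start was taken. Among the 32851 RefSeq windows of the same length, 16.5% held ACAAAG, 4.19% held CTGGCAC and 1.83% held CTGGTAC. A match describes the letters only, and binding was not measured.

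The members differed widely in abundance. Scaled to the longest coding transcript of each gene, Mbp was highest with a mean of 18150 normalized counts per kb over the 12 mice, and 42 genes of the table lay above it. Mobp followed with 8652 normalized counts per kb, then Cnp with 4420, Mal with 2830, Cldn11 with 2425, Mag with 2190, Mog with 1103, Ermn with 567 and Opalin with 259. The ranges over the 12 mice did not overlap between neighbours in this order except for Mal with Cldn11 and Cldn11 with Mag. The level of Mbp depends on the length chosen, since GENCODE M21 gives it 14 coding transcripts and the longest, of 4797 bases, was used. Opalin varied most between mice, with a coefficient of variation of 16.1%, and the other members had 4.8% to 8.7%. The median was 8.3% over the 18006 genes averaging 10 or more normalized counts, and 5.0% over the 6636 averaging 1000 or more, a class that holds every member except Opalin.

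**Figure D1:**
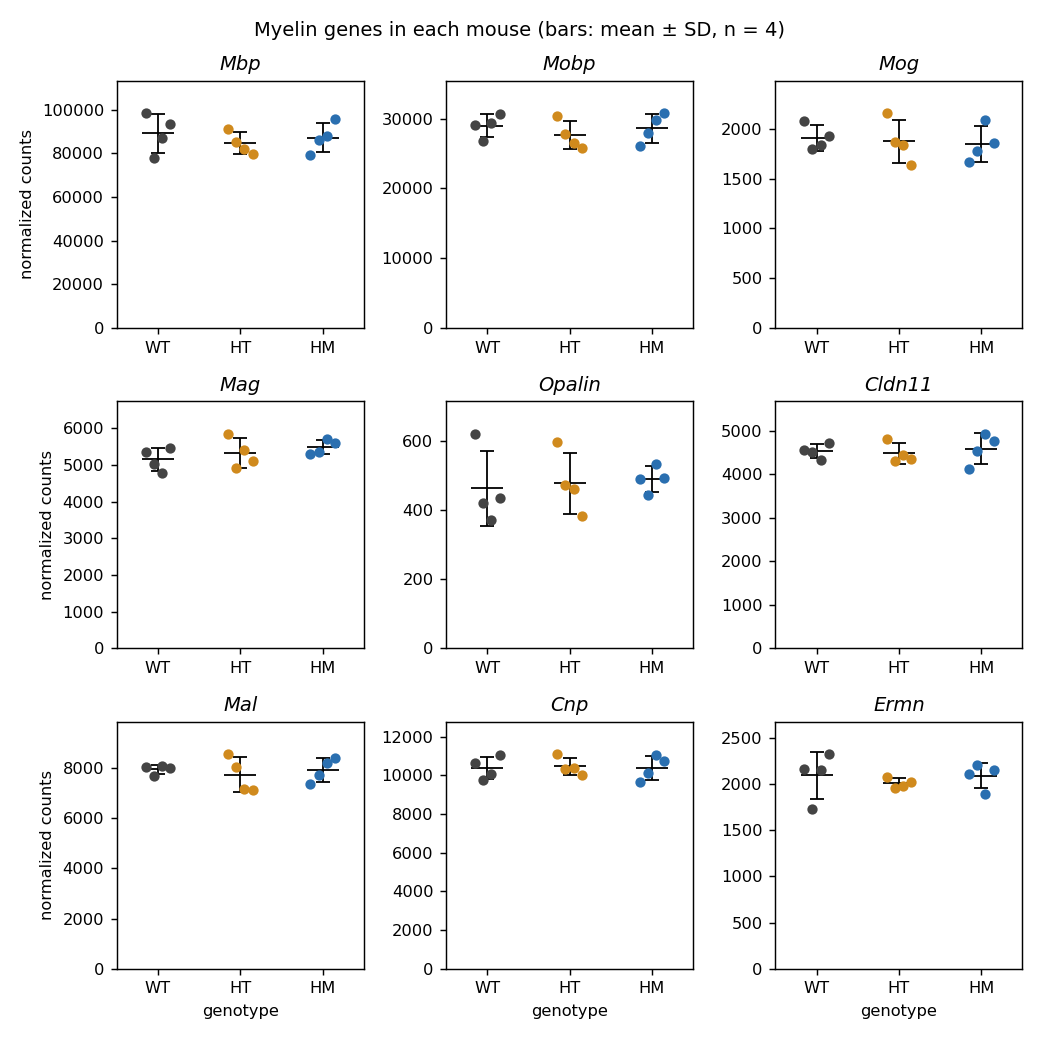
Normalized counts (vertical axes, starting at 0) of the 9 myelin genes in each mouse, by genotype. Points are mice in the order of their replicate number, and bars give the mean and SD of 4 mice. The WT, HT and HM points overlap in every panel.

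None of the 9 members changed with the loss of 1 or both Slc6a20a alleles at the threshold used. Genotypes were compared pairwise by limma on log2(normalized count + 1), with p-values adjusted by the Benjamini-Hochberg (BH) method over all genes tested and a threshold of 0.05. Members past the threshold numbered 0 of 9 when HT was set against WT, 0 of 9 when HM was set against WT and 0 of 9 when HM was set against HT. Of all genes tested, 0.00555% (1 of 18004), 0.0111% (2 of 18004) and 0.00556% (1 of 17986) passed in the same comparisons. Slc6a20a itself was the 1 gene for HT against WT and for HM against HT, and was among the 2 for HM against WT. The DESeq2 test of the authors called more genes in each mutant against WT, so the test used here makes few calls. An unadjusted p under 0.05 was reached by 0 of 9 members in each comparison, against 6.42%, 6.99% and 3.74% of all genes. The groups overlapped for each of the 9 members in each comparison, and 3.73%, 4.22% and 2.38% of all genes had groups that did not overlap. At shares this small, 0 of 9 does not set the members apart from other genes.

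Counts of calls do not show that the levels are equal, and the intervals give what differences the data allow. For the 8 members other than Opalin, the 95% intervals of the difference (limma) lay between -13.9% and 12.5% when HT was set against WT, between -13.0% and 14.4% for HM against WT and between -12.7% and 12.7% for HM against HT. The intervals of Opalin were wider and reached from -17.1% to 30.3%, from -11.2% to 30.8% and from -12.5% to 22.7%. The median log2 fold change of the members was -0.03 in HT and 0.00 in HM mice against WT and 0.04 for HM against HT, beside medians between -0.001 and 0.000 over all genes. Each column name ends in a number, called the animal number here, and the labels do not say what it marks. With its start as a block, 2 HM and 2 WT mice set the HM difference. In that fit 9 of 9 members were higher in HM than in WT mice. The median was 0.08, the range ran from 0.003 (Opalin) to 0.12 (Mag), and 0 passed the threshold. Of mice with a common start, the members averaged 0.08 from their own log2 means in HM replicate 3 and 0.10 in WT replicate 1. They averaged 0.07 in HM replicate 4 and -0.10 in WT replicate 2, where all 9 lay below. The members vary together, so 9 of 9 does not count separate results. HT and HM mice were set against the same 4 WT mice.

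**Figure D2:**
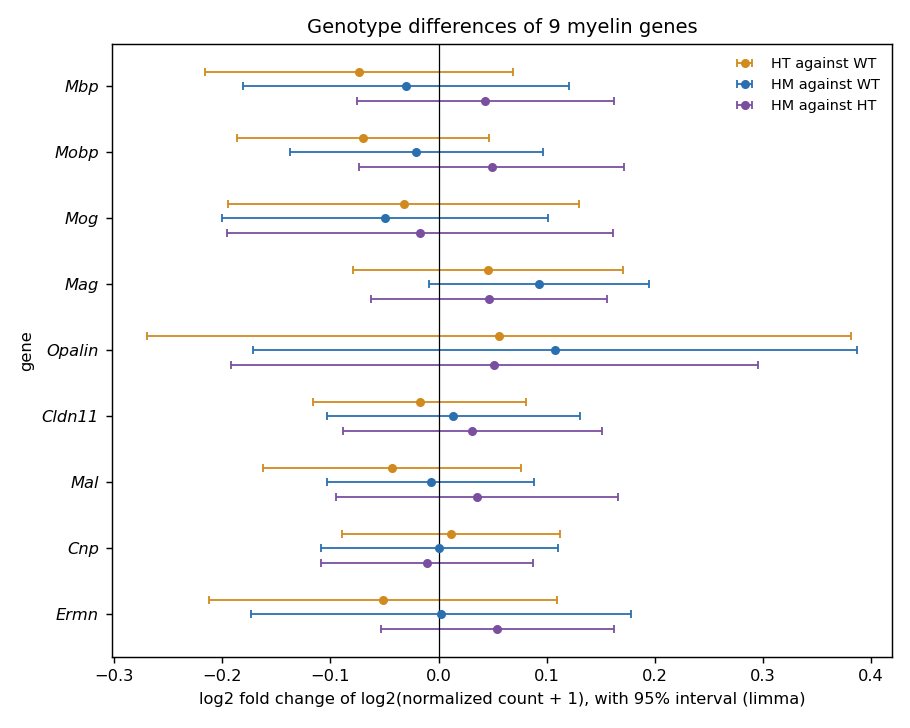
Log2 fold changes of the 9 myelin genes in 3 genotype comparisons (points) with 95% intervals from limma (lines). Every interval includes 0, and those of Opalin are the widest.

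Mbp (ENSMUSG00000041607, chr18:82475146-82585637 on GRCm38) encodes myelin basic protein, which draws the cytoplasmic faces of the membrane together. Its normalized counts were 98441, 77980, 87113 and 93572 in the 4 WT mice, 91262, 85466, 82194 and 79586 in HT mice, and 79155, 86126, 88233 and 95651 in HM mice. The highest and the lowest value of all 12 mice were both in WT mice, so the spread within WT took in both mutant groups. WT mice averaged 89276 ± 8846, HT mice 84627 ± 5035 and HM mice 87291 ± 6790 normalized counts. Against WT, Mbp had a log2 fold change of -0.07 in the HT group with SE 0.07 (BH-adjusted p = 0.896 by limma), and in the HM group it was -0.03 with SE 0.07 (BH-adjusted p = 0.952 by limma).

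Mobp (ENSMUSG00000032517, chr9:120149707-120181484 on GRCm38) encodes a small basic protein of the same compacted face. WT mice had 29120, 26852, 29319 and 30739 normalized counts, HT mice 30345, 27837, 26570 and 25876, and HM mice 26037, 27909, 29758 and 30790. HT replicates 3 and 4 and HM replicate 1 lay below all WT mice, while HM replicate 4 lay above them. Mobp had a log2 fold change of -0.07 in HT with SE 0.05 (BH-adjusted p = 0.873 by limma), and in the HM group it was -0.02 with SE 0.05 (BH-adjusted p = 0.958 by limma).

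Mag (ENSMUSG00000036634, chr7:30899176-30914873 on GRCm38) encodes an adhesion protein of the innermost myelin layer, where the sheath faces the axon. Its values were 5355, 5042, 4784 and 5458 normalized counts in WT, 5859, 4922, 5418 and 5122 in HT, and 5317, 5355, 5706 and 5612 in HM mice. HM mice lay in the upper part of the WT range or above it, with 2 of 4 above every WT mouse, and 1 HT mouse lay above the WT range. For HM against WT, Mag had the lowest p of any member in any comparison, with a log2 fold change of 0.09 (SE 0.05, 95% interval -0.01 to 0.19, limma, unadjusted p = 0.0704, BH-adjusted p = 0.732). The exact permutation p of that difference was 0.143 (two-sided), where 4 mice against 4 allow no value under 0.0286.

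Mog (ENSMUSG00000076439, chr17:37010743-37023398 on GRCm38) encodes a surface protein of the outermost layer. It had 2083, 1795, 1836 and 1933 normalized counts in WT, 2159, 1869, 1841 and 1634 in HT, and 1668, 1776, 2095 and 1864 in HM mice. The highest and the lowest mouse were both HT. Mog had a log2 fold change of -0.03 in HT with SE 0.08 (BH-adjusted p = 0.964 by limma), and in the HM group it was -0.05 with SE 0.07 (BH-adjusted p = 0.914 by limma).

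Opalin (ENSMUSG00000050121, chr19:41061710-41077113 on GRCm38) encodes a membrane glycoprotein of oligodendrocytes and was the least abundant member. Its values were 619.9, 420.1, 371.5 and 435.4 normalized counts in WT, 594.4, 470.9, 461.2 and 381.0 in HT, and 489.3, 443.8, 532.7 and 491.2 in HM mice. Replicate 1 stood above its own group in WT and in HT mice, while HM mice lay close together. The log2 fold change was 0.06 in HT with SE 0.15 (BH-adjusted p = 0.970 by limma), and in the HM group it was 0.11 with SE 0.13 (BH-adjusted p = 0.892 by limma).

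Cldn11 (ENSMUSG00000037625, chr3:31149920-31164324 on GRCm38) encodes a claudin that forms the tight junctions between myelin layers. WT mice had 4562, 4512, 4337 and 4731 normalized counts, HT mice 4823, 4315, 4438 and 4356, and HM mice 4114, 4542, 4937 and 4757. The HM values reached below and above those of both other groups. Its log2 fold change was -0.02 in HT (SE 0.05) and 0.01 in HM mice (SE 0.05).

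Mal (ENSMUSG00000027375, chr2:127633226-127656695 on GRCm38) encodes a proteolipid that helps to carry membrane proteins to the sheath. Its values were 8023, 7672, 8069 and 8007 normalized counts in WT, 8555, 8058, 7178 and 7139 in HT, and 7353, 7705, 8200 and 8395 in HM mice. The 4 WT mice lay within a narrower range than either mutant group, with an SD of 182.5 against 693 and 473 normalized counts. Mal differed from WT by -0.04 on the log2 scale in HT (SE 0.06) and -0.01 in HM mice (SE 0.04).

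Cnp (ENSMUSG00000006782, chr11:100574904-100591729 on GRCm38) encodes a cyclic nucleotide phosphodiesterase that keeps cytoplasmic channels open within myelin. WT mice had 10657, 9763, 10069 and 11070 normalized counts, HT mice 11103, 10346, 10387 and 10039, and HM mice 9659, 10149, 11060 and 10724. WT mice averaged 10390 ± 586, HT mice 10469 ± 450 and HM mice 10398 ± 620, closer together than the mice within any genotype. Cnp differed from WT by 0.01 on the log2 scale in HT (SE 0.05) and 0.00 in HM mice (SE 0.05).

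Ermn (ENSMUSG00000026830, chr2:58045113-58052864 on GRCm38) encodes ermin, an actin-binding protein of the oligodendrocyte cytoskeleton. Its values were 2162, 1727, 2154 and 2321 normalized counts in WT, 2074, 1958, 1976 and 2016 in HT, and 2104, 2204, 1891 and 2146 in HM mice. WT mice held both extremes, and HT mice had the smallest SD, 51.6 normalized counts against 254.8 in WT and 136 in HM mice. For Ermn the log2 fold change was -0.05 in HT (SE 0.07) and 0.00 in HM mice (SE 0.08). Across Cldn11, Mal, Cnp and Ermn, the adjusted p was at least 0.918 in HT and at least 0.974 in HM mice (limma, BH).

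Compared directly, HM and HT mice differed by log2 fold changes between -0.02 (Mog) and 0.05 (Ermn), with 7 of 9 members higher in HM mice, though single mice or other settings turned the sign of 6 of the 9 members. The adjusted p was 0.9998 for each member (limma, BH), and the lowest unadjusted p was 0.295 for Ermn.

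The members other than Ermn tended to move together from mouse to mouse. No r was taken within a single genotype. The mean deviation of the 9 genes from their own means over the 12 mice, on the log2 scale, was highest in HT replicate 1 (0.13) and WT replicate 1 (0.10), where all 9 genes lay above their means. It was lowest in HT replicate 4 (-0.12) and WT replicate 2 (-0.10), where all 9 lay below. In HM mice it was -0.08 in replicate 1, -0.02 in replicate 2, 0.08 in replicate 3 and 0.07 in replicate 4. Each genotype thus held mice on both sides of the mean. The rough estimate of reads, which the spacing of low values does not establish, was 35411324 and 35951110 for the 2 highest mice. For the 2 lowest it was 35506179 and 31414442. The part of depth in this level was not tested.

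**Figure D3:**
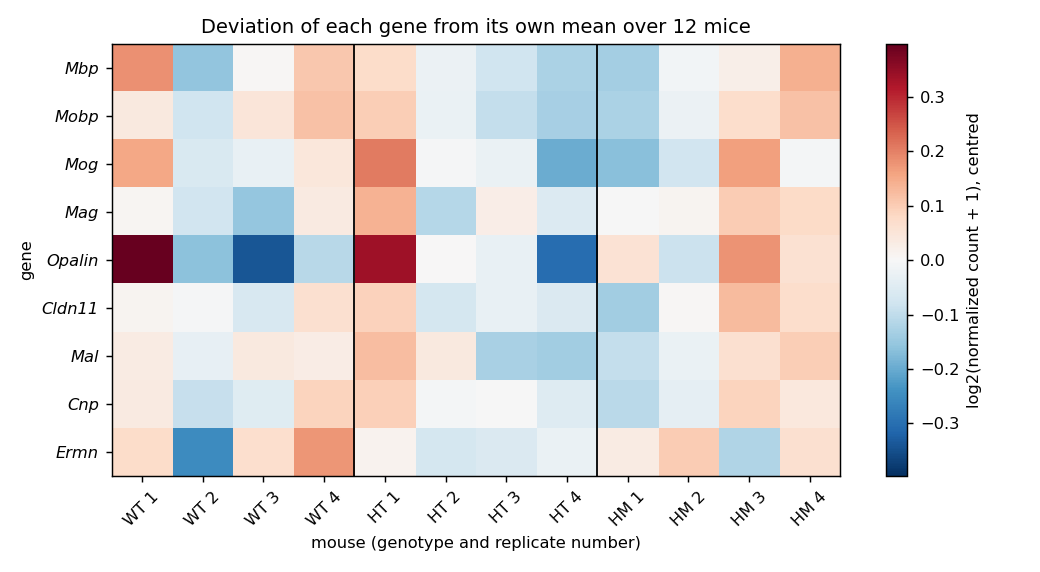
Deviation of each myelin gene (rows) from its own mean over 12 mice, on the log2(normalized count + 1) scale, in each mouse (columns, genotypes separated by lines). Columns of 1 colour, such as WT 1, HT 1 and HT 4, show members moving together, and in HM 3 Ermn is the only member below its own mean.

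Across the 12 mice, Pearson's r was above 0 for 36 of 36 pairs of members, with a median of 0.641 and a range from 0.036 to 0.904. Spearman's rho had a median of 0.605. With p-values from 100000 permutations adjusted by BH over the 36 pairs, 18 pairs passed 0.05 for r and 17 for rho. Mobp and Mal were the closest pair, with r = 0.904 (permutation p = 7e-05) and rho = 0.846 (permutation p = 0.00115), and r was 0.842 after the 2 mice farthest from the Mobp median were left out. Mbp and Mobp, the 2 compaction genes, had r = 0.874 (permutation p = 3.5e-04), and Cldn11 and Cnp had r = 0.851 (permutation p = 5.7e-04). Without the 2 farthest mice the median r over the pairs was 0.561 and the lowest -0.123, for Opalin and Ermn. The median r was 0.670 with values centred within each genotype and 0.662 with values centred among mice whose animal numbers start alike in the column names. No set of mice with a common start numbered 6, so r was not taken within single sets.

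Over the 12 mice Ermn had the lowest mean r with the other members, but not among mice whose animal numbers start alike. Its r with the other 8 ranged from 0.036 with Cldn11 to 0.595 with Mbp, with a mean of 0.234, and 0 of these 8 pairs passed the adjusted threshold. The mean r of every other member lay between 0.491 (Opalin) and 0.691 (Cnp). Ermn also has the lowest GC content of the members, 38.0% over its transcript against 47.6% to 57.6%. When each library was corrected for transcript length and GC content, a step added once the data had been seen, the median r over all pairs was 0.614 and the mean r of Ermn 0.180. With values centred among mice of a common number start, however, the mean r of Ermn was 0.611, above those of Opalin (0.458), Mag (0.530) and Cldn11 (0.561), and its r with Mbp was 0.971. HM replicates 1 and 2 form a set of their own, as do WT replicate 1 and HM replicate 3. Centring makes the values of such a pair mirror each other, and these centred r carry no test.

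The 5 genes outside the group whose pattern was most like the mean of the 9 members over the 12 mice were Cpped1 (r = 0.927), Efhd1 (r = 0.901), Gsn (r = 0.899), S100a1 (r = 0.893) and Arpc3 (r = 0.891). They were taken from 17997 genes, so high values of r follow from the selection. Gsn encodes gelsolin, which severs actin filaments and is abundant in mature oligodendrocytes, and Arpc3 encodes a subunit of the complex that starts branched actin filaments. Of the first 50 genes in this order, 4, Gsn included, were among the 44 other myelin and mature oligodendrocyte genes listed for the comparison, which is 9.09% of that list. These values of r describe the libraries, which share 1 normalization, and carry no test.

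The other 44 myelin genes were set beside the members in the same way. Their r with the mean of the members had a median of 0.5, and 22 of 44 exceeded 0.5, against 7.55% of all genes, whose median was -0.005. Pllp had r = 0.813 and Carns1, which makes carnosine, had 0.791. Among the oligodendrocyte transcription factors, Olig1 (r = 0.801) and Olig2 (r = 0.727) exceeded 0.5, and the other 9 of the 11 did not. Among 17 genes of myelin lipid synthesis, 3 exceeded 0.5, all of them for sphingolipids: Ugt8a (0.721) and Fa2h (0.704), which make galactolipids with hydroxylated fatty acids, and Cers2 (0.630), a ceramide synthase. None of the 10 genes of cholesterol synthesis did, but Hmgcs1, of that group, had 0.488 and reached 0.546 with the correction for length and GC content. Of the 10 markers of oligodendrocyte precursors 0 exceeded 0.5, and their median r was -0.027. The 13 axonal genes, of the nodes, paranodes and neurofilaments, had a median r of -0.334 and 0 above 0.5, and the lowest was Cntnap1, the axonal partner at the paranode, with -0.642. With the correction for length and GC content, the median was 0.445 for the other myelin genes and -0.131 for the axonal genes. Of the axonal genes, Cntnap2 then exceeded 0.5, moving from 0.181 to 0.536.

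**Figure D4:**
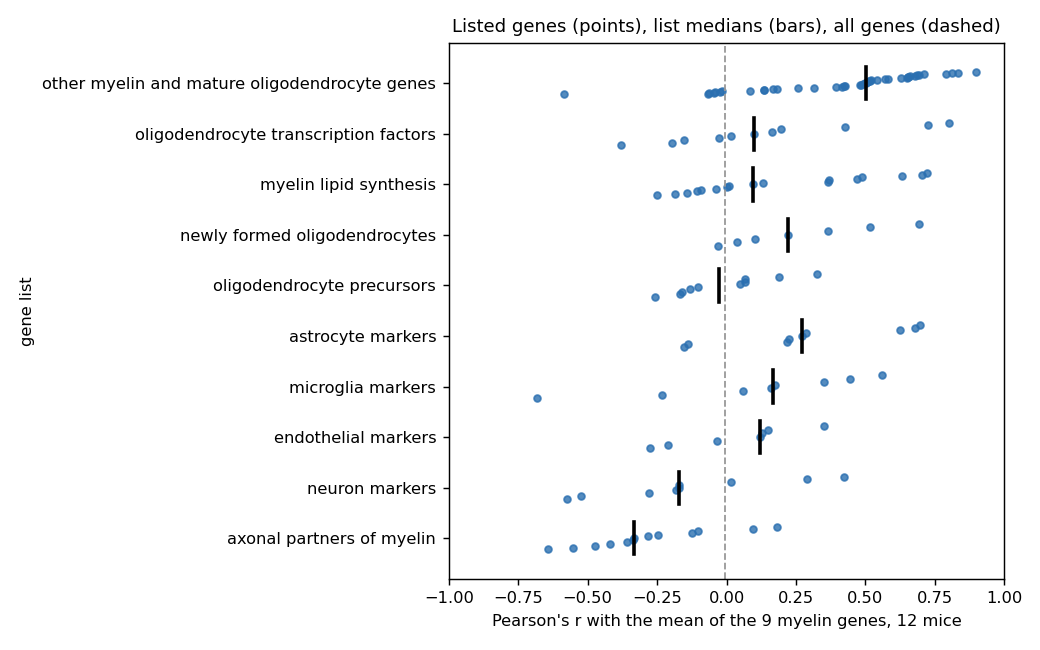
Pearson's r over 12 mice between each listed gene (points) and the mean of the 9 myelin genes, by gene list, with list medians (bars) and the median of all genes (dashed line). Of the lists plotted, the other myelin genes have the highest median, 0.5, and the axonal partners the lowest, -0.334.

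None of the 44 other myelin genes passed the adjusted threshold in any comparison (limma, BH). At an unadjusted p under 0.05, 1 was higher and 7 were lower in HT than in WT mice, 1 was higher and 2 were lower in HM than in WT mice, and 3 were higher and 0 lower in HM than in HT mice. Of all genes, 6.42%, 6.99% and 3.74% reached such a p in the same comparisons. The median log2 fold change of the list was -0.05, -0.03 and 0.04 in these comparisons. Anln, which encodes the septin-binding scaffold anillin, had the lowest p of the list in both mutants. WT mice averaged 1642 ± 98.3 normalized counts of it, HT mice 1424 ± 56.1 and HM mice 1455 ± 84.9, and every HT mouse lay below every WT mouse. Of all genes, 3.73% had no overlap between HT and WT mice. Anln had a log2 fold change of -0.20 in HT with SE 0.05 (BH-adjusted p = 0.750 by limma), and in the HM group it was -0.17 with SE 0.06 (BH-adjusted p = 0.655 by limma). Ndrg1 had the lowest p for HM against HT, with a log2 fold change of 0.11 (limma, BH-adjusted p = 0.9998).

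The rest of the lineage gave 0 genes past the adjusted threshold in each comparison too (limma, BH). An unadjusted p under 0.05 was reached by 6.42% (HT against WT), 6.99% (HM against WT) and 3.74% (HM against HT) of all genes. At an unadjusted p under 0.05, the 11 transcription factors had 0 genes in HT mice, 1 in HM mice against WT (Tcf7l2, log2 fold change 0.14) and 1 for HM against HT (Myrf, 0.08). Olig1 (-0.09) had the lowest p of that list in HT mice. The 17 lipid synthesis genes had 0, 2 and 0 such genes. Elovl1, which lengthens fatty acids, had a log2 fold change of -0.16 in HM mice and of -0.14 in HT mice, where its p was the lowest of the list. For HM against HT that gene was Lss (-0.13). Precursor markers had 1 in HT mice (Neu4, -0.18) and 0 in the other comparisons, where Neu4 (-0.13) and Pcdh15 (-0.16) came first. The 7 measured genes of newly formed oligodendrocytes had 1, Enpp6, with a log2 fold change of 0.33 in HM mice (SE 0.13, limma, unadjusted p = 0.0212, BH-adjusted p = 0.670). WT mice averaged 260.9 ± 42.5 normalized counts of Enpp6, HT mice 283.9 ± 37.4 and HM mice 328 ± 48.2. Bcas1 (-0.10) came first of that list in HT mice.

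Of the 13 axonal genes, 0 passed the adjusted threshold (limma, BH), and an unadjusted p under 0.05 was reached by 1 in HT mice (Cntn1) and 2 in HM mice (Cntn1 and Ank3), all higher than in WT, and by 0 for HM against HT, where Scn8a came first with a log2 fold change of 0.03. Over all genes the shares at that p were 6.42%, 6.99% and 3.74%. Cntn1 encodes contactin, which pairs with Cntnap1 on the axon. WT mice averaged 10833 ± 345 normalized counts of Cntn1, HT mice 11720 ± 184 and HM mice 11756 ± 273, and all mutant mice lay above all WT mice. Of all genes, 3.73% had no overlap for HT against WT and 4.22% for HM against WT. The log2 fold change of Cntn1 was 0.11 in HT with SE 0.04 (BH-adjusted p = 0.768 by limma), and in the HM group it was 0.12 with SE 0.04 (BH-adjusted p = 0.643 by limma).

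Markers of other cells and regions were measured in the same samples, beginning with Schwann cells, which myelinate peripheral nerves and also express Mag and Mbp. The 4 measured Schwann cell markers of 7 listed (Prx, Egr2, Ncmap and Cldn19) summed to between 167.5 and 313.6 normalized counts per mouse, against 135764 to 161024 for the 9 members. No listed marker passed the adjusted threshold in any comparison (limma, BH). An unadjusted p under 0.05 was reached by 6.42% (HT against WT), 6.99% (HM against WT) and 3.74% (HM against HT) of all genes. At an unadjusted p under 0.05, 8 of 9 olfactory bulb markers were higher in HM than in WT mice, and 9 of 9 were higher in HM than in HT mice. All 5 blood markers were lower in HT than in WT mice, 4 of the 5 were higher in HM than in HT mice, and 3 of 7 choroid plexus markers were lower in HM than in WT mice. Of 8 microglia markers, 3 were lower in HM than in HT mice and 2 were lower in HM than in WT mice. The other lists (astrocytes, neurons, endothelium, cerebellum, brainstem and Schwann cells) had at most 2 such genes in any comparison. The median r with the mean of the members was 0.281 for olfactory bulb, -0.039 for blood, -0.098 for choroid plexus and 0.272 for astrocyte markers. Of the 9 astrocyte markers 3 exceeded 0.5, Aqp4 with 0.696, Gfap with 0.680 and S100b with 0.626, and the same 3 did with the correction for length and GC content. The part of these markers in the levels of the members was not tested.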

How the data were processed

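RNA was sequenced from the whole brains of 12 mice, 4 of each genotype, as poly-A selected libraries with paired reads of 100 bp. The authors quantified reads with Salmon 1.1.0 on GRCm38 with GC bias correction, summed estimates to genes with tximport and normalized them with DESeq2 1.30.1. The deposited signal is these normalized counts. They are not whole numbers, and at most 24.2% of values under 20 were whole multiples of 1 read (tolerance 0.02), so reads were not recovered and no count model was used. Column names gave genotype and replicate number, KO standing for the homozygous mice. They also end in a number, called the animal number here. Its leading digits were used to group mice, and the labels do not say what it marks. GENCODE M21 (GRCm38) named 19758 of 19775 gene identifiers and gave transcript lengths.

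Genotypes were compared with limma 3.58.1 (R 4.3.3) after conversion to log2(normalized count + 1), in the 8 mice of each comparison, for genes whose mean reached 10, with the prior variance fitted as a trend on the mean. The fit was tested on simulated data. Exact permutation tests and correlations used scipy 1.17.1. Fold changes understate those of low genes. Genes named are the 9 members, Slc6a20a, listed genes past the threshold, the gene with the lowest p in each of the lists of myelin, lineage and axonal genes, and the 5 genes most like the members. Others named beside a count or an r were picked with their values in view. Some items that this rule or the lists hold are not reported here. The members and lists were chosen with earlier results of these data known. Alternatives were another pseudocount and filters, 1 fit of all mice, blocks for the replicate number or animal number, quantile normalization, a correction for length and GC content (loess, span 0.4), other variance priors and leaving out each mouse.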

Additional observations from a re-analysis of the deposited data

Results flagged for a closer look

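Of 27 groups of 4 mice (9 genes in 3 genotypes), 1 held a mouse far from the others by Dixon's test: Mal in WT replicate 2, with 7672 normalized counts, the lowest of the WT mice, whose other values lay between 8007 and 8069. About 1 in 20 such groups is flagged by chance.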

How the results depend on the processing

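None of the 9 members passed the adjusted threshold (limma, BH) in any comparison under any of the alternatives run, and the count at an unadjusted p under 0.05 was 0 except as follows. For HT against WT it was 2 without WT replicate 2 and 1 without HT replicate 1. For HM against WT it was 1 with the length and GC correction, 2 without WT replicate 1 and 1 without WT replicate 4. For HM against HT it was 1 without HM replicate 3. Slc6a20a in HT mice kept its log2 fold change of -0.97 but not its call without a trend in the variance prior (BH-adjusted p = 0.145 by limma).

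Fitted with the replicate number as a block, 0 members passed in each comparison and the fold changes stayed equal, with an adjusted p of 0.834 for Mag in HM mice (limma, BH). The numbers pair no samples: the deviations of mice of 1 number had correlations between -0.066 and 0.087. With the start of the animal number as a block, only mice whose starts occur in both genotypes set the fold change. For HM against WT, set by 2 mice of each genotype, 9 of 9 members then lay above 0, and Opalin moved from 0.11 to 0.0034. Signs then turned for HM against WT to 0.068 (Mbp), 0.11 (Mobp), 0.031 (Mog) and 0.081 (Mal), and for HM against HT to -0.11 (Opalin) and 0.00082 (Cnp). Quantile normalization turned Cnp to -0.024 in HT and -0.033 in HM mice and Mbp to 0.025 in HM mice, all against WT. The length and GC correction turned Cldn11 to 0.0090 in HT and Mal to 0.00021 in HM mice. The cause was not tested.

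Leaving out 1 mouse at a time turned the sign of several members. For HT against WT the log2 fold changes ran from -0.00077 to 0.083 for Mag, -0.10 to 0.032 for Mog, -0.056 to 0.21 for Opalin, -0.053 to 0.0030 for Cldn11, -0.018 to 0.043 for Cnp and -0.14 to 0.0014 for Ermn. For HM against WT they ran from -0.094 to 0.019 for Mbp, -0.057 to 0.024 for Mobp, -0.023 to 0.065 for Cldn11, -0.036 to 0.028 for Mal, -0.029 to 0.036 for Cnp and -0.087 to 0.056 for Ermn. For HM against HT they ran from -0.0017 to 0.089 for Mbp, -0.081 to 0.053 for Mog, -0.050 to 0.16 for Opalin, -0.0052 to 0.083 for Cldn11, -0.0013 to 0.086 for Mal and -0.041 to 0.024 for Cnp. With 4 mice a group, the spread between mice limits what can be seen in these abundant genes.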
